A study of Mus musculus with 22 samples.

Results

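The constitutive proteasome is the protease complex that every cell uses to destroy proteins tagged with ubiquitin. The genes described here are those of its core, Psma1 to Psma7 and Psmb1 to Psmb7, and of its regulatory cap, Psmc1 to Psmc6 and Psmd1 to Psmd14. All 34 were measured, 14 of the core and 20 of the cap, among 18193 genes on the arrays. Members were taken by gene symbol, and each gene was read from the probe set that carries its symbol alone and has the highest mean over the arrays. The rule reads no difference between groups, but it was set with earlier results of these data known. RNA came from the terminal ileum, the last stretch of the small intestine, of the NOD mouse, which is inbred and spontaneously develops autoimmune diabetes, and the study asked how antibiotic disturbance of the gut microbes affects ileal gene expression. Each of 22 arrays held 1 sample. The 6 groups were 3 PAT females, 3 STAT females, 3 control females, 5 PAT males, 3 STAT males and 5 control males. In the PAT groups, therapeutic antibiotic doses were given in pulses, and in the STAT groups the dosing was sub-therapeutic. Drugs, doses and ages are not stated in the sources used here. Whether each sample is a separate animal is also not stated, so p-values reflect the spread between samples alone, and some of that spread may be technical. PAT and STAT were set against the same control arrays, and all groups share the NOD background.

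The core is a barrel of stacked rings. The outer rings of alpha subunits gate the entry, and the inner rings of beta subunits hold the active sites, which sit on Psmb5 (chymotrypsin-like), Psmb6 (caspase-like) and Psmb7 (trypsin-like). The cap recognises ubiquitin, removes it and unfolds the substrate. Its base holds the ATPases Psmc1 to Psmc6, the scaffolds Psmd1 and Psmd2 and the ubiquitin receptor Psmd4, and its lid holds Psmd14, the enzyme that cuts the ubiquitin chain off, with structural subunits around it. Psmd5, Psmd9 and Psmd10 help to assemble the base and are not part of the finished particle. Under interferon, the immunosubunits Psmb8, Psmb9 and Psmb10 take the places of Psmb5, Psmb6 and Psmb7, which changes the peptides that are made for antigen presentation. In many mammalian cells the transcription factor Nfe2l1 raises proteasome genes together when the proteasome is inhibited.

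All values are log2 levels from the deposited table, where a difference of 1 is a 2-fold change. Mean levels of the 34 members ran between 8.26 (Psmd9) and 12.32 (Psma3). Levels of different probe sets cannot be set against each other, so only differences between arrays are read below. The members varied little within groups. Their median within-group standard deviation (SD) was 0.099, against 0.146 for 6985 genes with a mean of at least 8 and 0.158 for all genes. Neither set was matched to the members in mean level, so these values do not show whether equally bright genes vary more. The ileal marker Fabp6 lay between 13.93 and 14.62 on every array, and the exocrine pancreas marker Cela2a between 3.72 and 5.06. STAT males 2 and 3 stood apart in 1 of 2 measures of RNA integrity, the gap between the 3-prime and 5-prime probe sets of beta-actin, with 0.59 and 0.60 against 0.28 to 0.42 on the other arrays. In the same gap for Gapdh they had -0.04 and -0.08, within the -0.26 to -0.03 of the other arrays. PAT female 1 stood apart in the mean centred level of B cell markers, 2.57 against -0.31 to 0.14 on the other arrays.

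Averaged over the sexes, the constitutive proteasome lay close to its control level with PAT. Among the 34 members, 1 rose, the lid subunit Psmd12, and 0 fell, where limma called 11% of all genes, and 4.61% as higher. At an unadjusted p under 0.05 the members numbered 6, against 24.1% of all genes. The median difference was 0.017 for the core and 0.037 for the cap, beside -0.005 for all genes. The 95% intervals of all 34 members stayed within 1.5-fold in either direction, and those of 30 stayed within 0.3 on the log2 scale.

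Psmd12 levels were 10.50, 10.53 and 10.54 in PAT females, against 10.18, 10.16 and 10.18 in control females. In males the levels were 10.40, 10.33, 10.16, 10.32 and 10.52 with PAT, against 10.14, 10.26, 10.13, 10.31 and 10.20 in controls. The female groups did not overlap, while in males PAT male 3 lay within the control range. Psmd12, a structural subunit of the lid, was 0.24 ± 0.05 (SE) higher with PAT, or 1.18-fold, with an adjusted p of 0.0057. The difference lay between 0.22 and 0.27 with each array left out in turn, and each time the call held. With the Gapdh end difference as a covariate it was 0.23 with an adjusted p of 0.051. That difference, a measure of RNA integrity, was itself higher with PAT, at -0.07 ± 0.04 (SD, n = 3) in PAT females against -0.15 ± 0.06 (n = 3) in control females, and -0.16 ± 0.06 (n = 5) in PAT males against -0.24 ± 0.03 (n = 5) in control males. Psmd12 has a single probe set on the array.

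**Figure D1:**
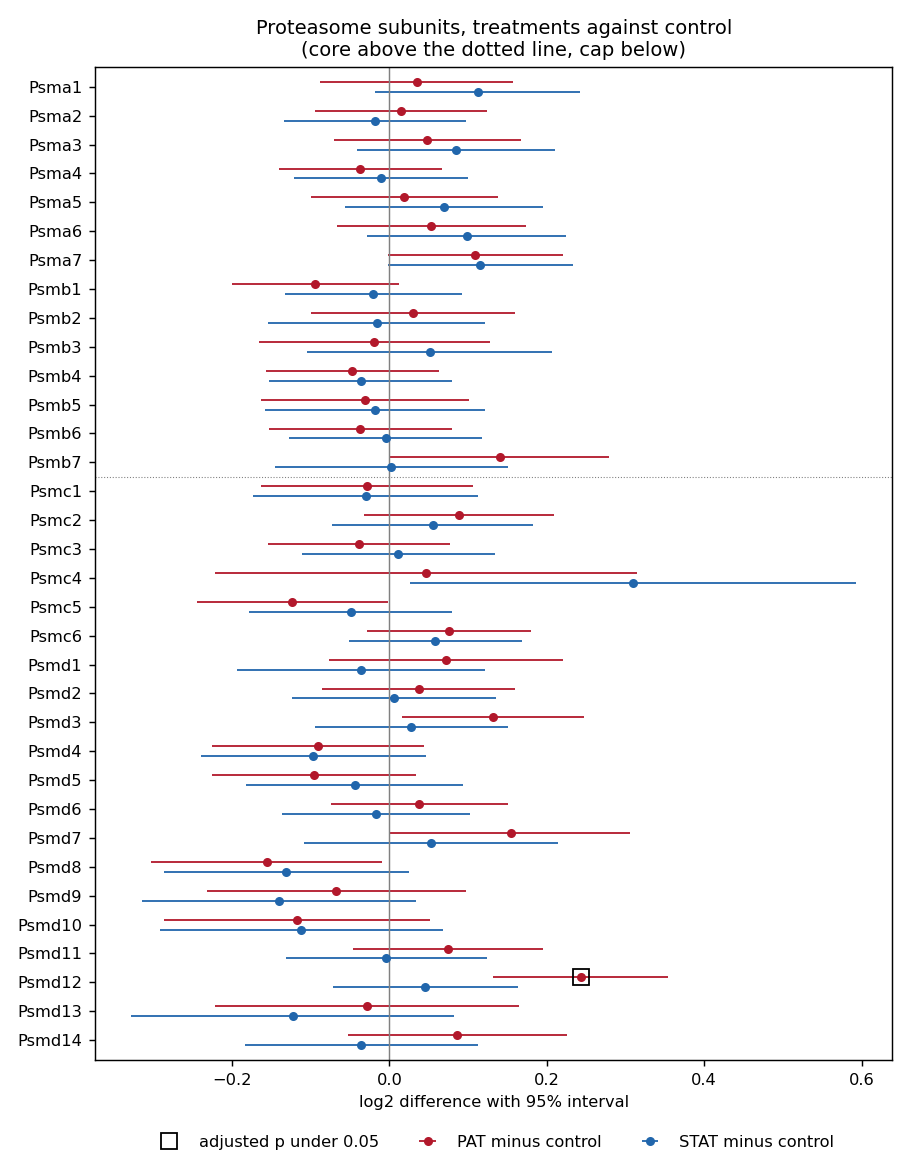
Log2 difference with its 95% interval for each of the 34 members, PAT minus control and STAT minus control, both averaged over the sexes, with core genes above the dotted line and cap genes below it. Psmd12 is the only member past an adjusted p of 0.05 in either comparison. The other members lie between -0.16 and 0.31, with Psmc4 under STAT the most distant.

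The other lid subunits did not pass the test. Psmd3 differed by 0.13 (adjusted p = 0.14) and Psmd7, the partner of Psmd14 in the lid, by 0.15 (adjusted p = 0.20). Psmd8, also a lid subunit, ran the other way. Its levels were 11.03, 11.06 and 11.06 in PAT females against 11.22, 11.08 and 11.09 in control females, and 10.97, 10.76, 10.99, 10.78 and 10.91 in PAT males against 11.15, 11.27, 11.02, 11.07 and 11.05 in control males. Within each sex every PAT array lay below every control array. The averaged difference was -0.16 ± 0.07 (SE), or 0.897-fold, with an adjusted p of 0.17. Psmd8 was the only member with this separation in females (background 13.2% of all genes) and the only one in males (background 5.29%). In the base, Psmc5, an ATPase, differed by -0.12 (adjusted p = 0.20). The 3 base assembly chaperones lay between -0.12 and -0.07, and none was called.

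The catalytic subunits were not called. Psmb5 differed by -0.03 ± 0.06 (SE), Psmb6 by -0.04 ± 0.06 and Psmb7 by 0.14 ± 0.07 (adjusted p = 0.21). The intervals allow a change of -0.16 to 0.10 for Psmb5, of -0.15 to 0.08 for Psmb6 and of 0.00 to 0.28 for Psmb7.

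Females and males were then compared separately. In females, where limma called 3.35% of all genes and 2.27% as higher, Psmd12 and Psmd3 rose and 0 members fell. At an unadjusted p under 0.05 there were 6 (background 20.9%). The differences of 27 of the 34 members lay above 0, against 48.8% of all genes, with medians of 0.128 for the core and 0.130 for the cap beside -0.006 for all genes. In males, where limma called 9.02% of all genes, 0 members were called, although 10 had an unadjusted p under 0.05 (background 25%). There 30 of 34 differences lay below 0, among them all 14 of the core, against 9538 of all 18193 genes. The medians were -0.093 for the core and -0.083 for the cap beside -0.011 for all genes. With the probe sets of a gene averaged, the cap median was smaller in both sexes, 0.044 in females and -0.045 in males, and the core median was 0.1 in females and -0.083 in males. Averaged in this way, 23 members, 11 of them core, lay above 0 in females, and 29, with all 14 of the core, below 0 in males. Several probe sets exist for 19 members, some of them dim. For 6 of the 19, all probe sets had the same sign for PAT minus control averaged over the sexes. On the brightest probe set of each gene, 24 of the 34 members were above 0 in females and below 0 in males, 13 of them in the core and 11 in the cap, where the background was 25.4% of all genes.

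The mean of the core genes on each array, with every gene centred on its own mean over the 22 arrays, is given next. It was 0.17, 0.16 and 0.13 in PAT females, against 0.04, 0.02 and 0.00 in control females. In PAT males it was -0.15, -0.20, -0.19, -0.15 and 0.06, against 0.00, 0.08, -0.12, 0.04 and -0.08 in control males. PAT females all lay above the control females, while 4 PAT males lay below every control male and PAT male 5 lay among them. STAT arrays were between -0.03 and 0.09 in both sexes.

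**Figure D2:**
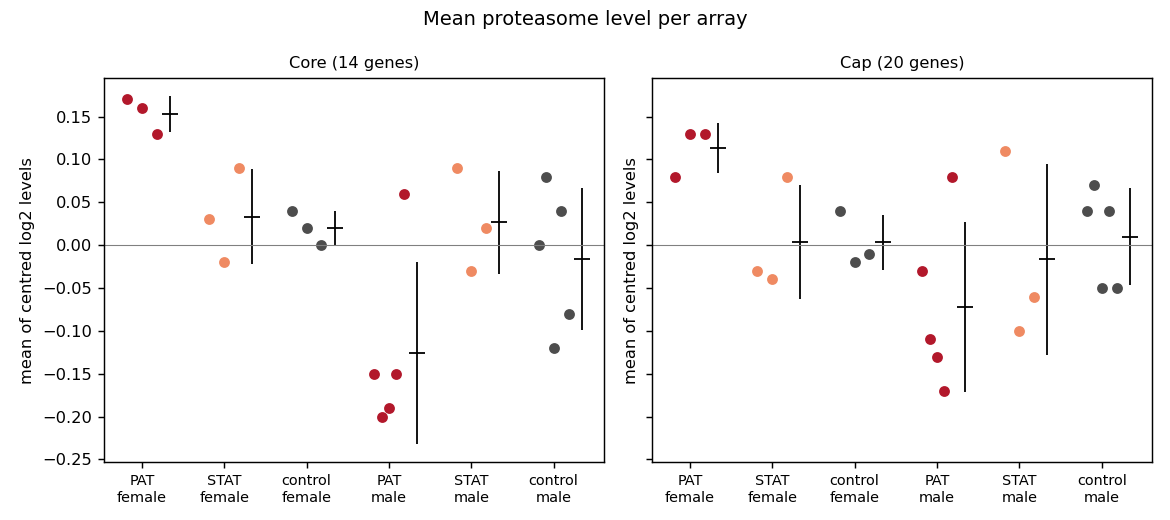
Mean of the centred log2 levels of the 14 core genes (left) and the 20 cap genes (right) for each array, by group, with the group mean ± SD beside the points. PAT females sit at 0.13 to 0.17 for the core, 4 PAT males at -0.20 to -0.15, and PAT male 5 at 0.06.

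The cap mean was 0.08, 0.13 and 0.13 in PAT females against 0.04, -0.02 and -0.01 in control females. In males it was -0.03, -0.11, -0.13, -0.17 and 0.08 with PAT, against 0.04, 0.07, -0.05, 0.04 and -0.05 in controls. For the cap, the male groups overlapped more than for the core. Counted by gene, PAT females 1, 2 and 3 were above the control female mean in 27, 29 and 32 of the 34 members. PAT males 1 to 4 were below the control male mean in 29, 30, 32 and 32 of them. PAT male 5 was above it in 28, and it was the highest PAT male in 29 of 34 members. These counts by array were not made over all genes.

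The test of the difference between the sexes called 0 of the 34 members and 0.0055% of all genes. At an unadjusted p under 0.05 it held 13 members, 9 of them in the core, where the background was 18.6% of all genes. The female effect minus the male effect was above 0 for 33 of the 34 members, against 53.9% of all genes, with Psmc4 the exception. Psmc4 was at -0.06 in PAT females and 0.15 in PAT males on the probe set used. Its second, dimmer probe set gave 0.07 and -0.15, so the exception depends on the probe set. The members were read on the same arrays, so their signs are not independent of each other. Psmd3 had the smallest p, with a difference of 0.38 ± 0.11 (SE) and an adjusted p of 0.12. Without PAT male 5 the unadjusted count was 22 (background 18%), the male core median -0.136 and the male cap median -0.129. Without PAT female 1 the unadjusted count was 6 (background 14.9%) and the female core median 0.12.

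In the alpha ring, which forms the gate, all 7 genes were above 0 in females (0.07 to 0.25) and below 0 in males (-0.15 to -0.04). In the beta ring 6 of 7 were above 0 in females, up to 0.33 for Psmb7, and all 7 were below 0 in males (-0.17 to -0.05). The exception in females was Psmb1, at -0.02. Psmb7 was at 9.43, 9.34 and 9.36 in PAT females against 9.06, 8.93 and 9.17 in control females, and at 9.11, 9.13, 9.04, 8.99 and 9.46 in PAT males against 9.15, 9.14, 9.09, 9.34 and 9.24 in control males. The female groups were separate and the male groups overlapped, with PAT male 5 the highest of all 22 arrays. Its difference was 0.33 in females (adjusted p = 0.083) and -0.05 in males (adjusted p = 0.76), and with quantile normalization repeated the male value was 0.02.

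Psmb5 levels in PAT males were 11.04, 10.93, 10.94, 11.02 and 11.22, against 11.09, 11.31, 11.14, 11.28 and 11.18 in control males. Psmb6 had 11.12, 11.10, 11.12, 11.04 and 11.28 in PAT males and 11.33, 11.49, 11.20, 11.30 and 11.16 in control males. Both genes were lower in 4 PAT males than in every control male. The differences in males were -0.17 for each gene (adjusted p = 0.17 for Psmb5 and 0.13 for Psmb6), and in females they were 0.11 and 0.09.

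**Figure D3:**
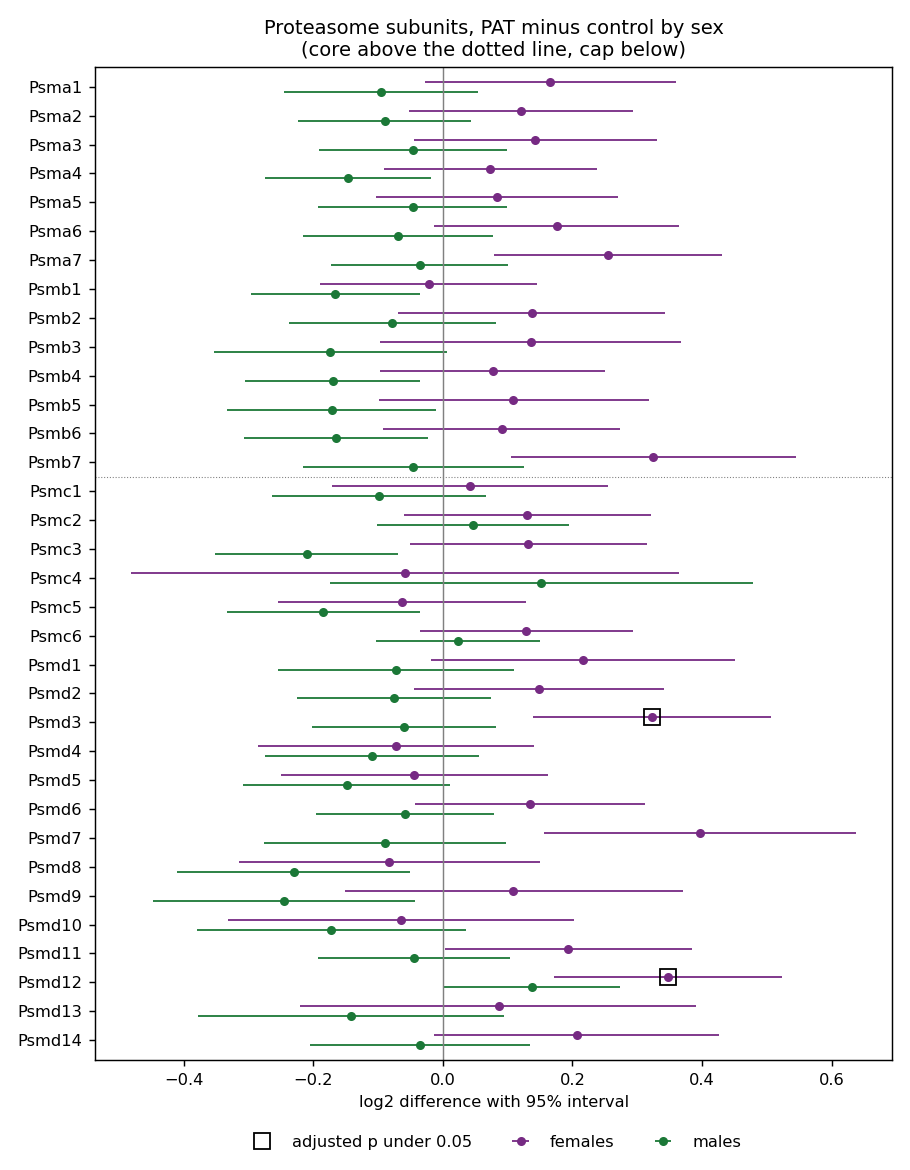
Log2 difference PAT minus control with its 95% interval for each of the 34 members, in females and in males, with core genes above the dotted line and cap genes below it. Female values lie mostly right of 0 and male values mostly left of it, and squares mark Psmd12 (0.35) and Psmd3 (0.32), which passed the test in females.

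The lid carried the 2 genes called in females. Psmd12 was 0.35 ± 0.08 (SE) higher in PAT females (adjusted p = 0.030), and it was 0.14 higher in PAT males (adjusted p = 0.19), the same direction in both sexes. Psmd3 had 9.83, 9.82 and 9.85 in PAT females against 9.61, 9.49 and 9.44 in control females, a difference of 0.32 ± 0.09 (adjusted p = 0.046). In males Psmd3 had 9.57, 9.33, 9.43, 9.47 and 9.74 with PAT, against 9.56, 9.62, 9.55, 9.59 and 9.52 in controls, a difference of -0.06 (adjusted p = 0.61). Each of the 6 runs without 1 of the arrays of the female comparison left both genes uncalled, with adjusted p up to 0.10 for Psmd12 and 0.17 for Psmd3. Psmd7 was 10.16, 10.08 and 10.07 in PAT females against 9.62, 9.82 and 9.68 in control females, the largest female difference among the members at 0.40, with an adjusted p of 0.059.

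In females 21 of the 34 members had every PAT array above every control array, where the background was 14.7% of all genes. They were 11 of the core and 10 of the cap, and those of the cap were Psmc2, Psmc3, Psmc6, Psmd1, Psmd3, Psmd6, Psmd7, Psmd11, Psmd12 and Psmd14. In males 0 of 34 had this separation (background 1.75%). When the probe sets of a gene were averaged instead, the female count was 15. The smallest p in males was that of Psmc3, an ATPase of the base. Psmc3 had 11.12, 10.95, 11.02, 11.14 and 11.33 in PAT males against 11.30, 11.38, 11.26, 11.39 and 11.27 in control males, so that 4 PAT males lay below every control male. Its difference of -0.21 ± 0.07 (SE) had an adjusted p of 0.057. Over 10 runs without 1 array the Psmc3 difference was -0.27 to -0.17, with limma adjusted p up to 0.17. Only 1 of these runs called Psmc3, the run without PAT male 5 (-0.27, adjusted p = 0.016).

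**Figure D4:**
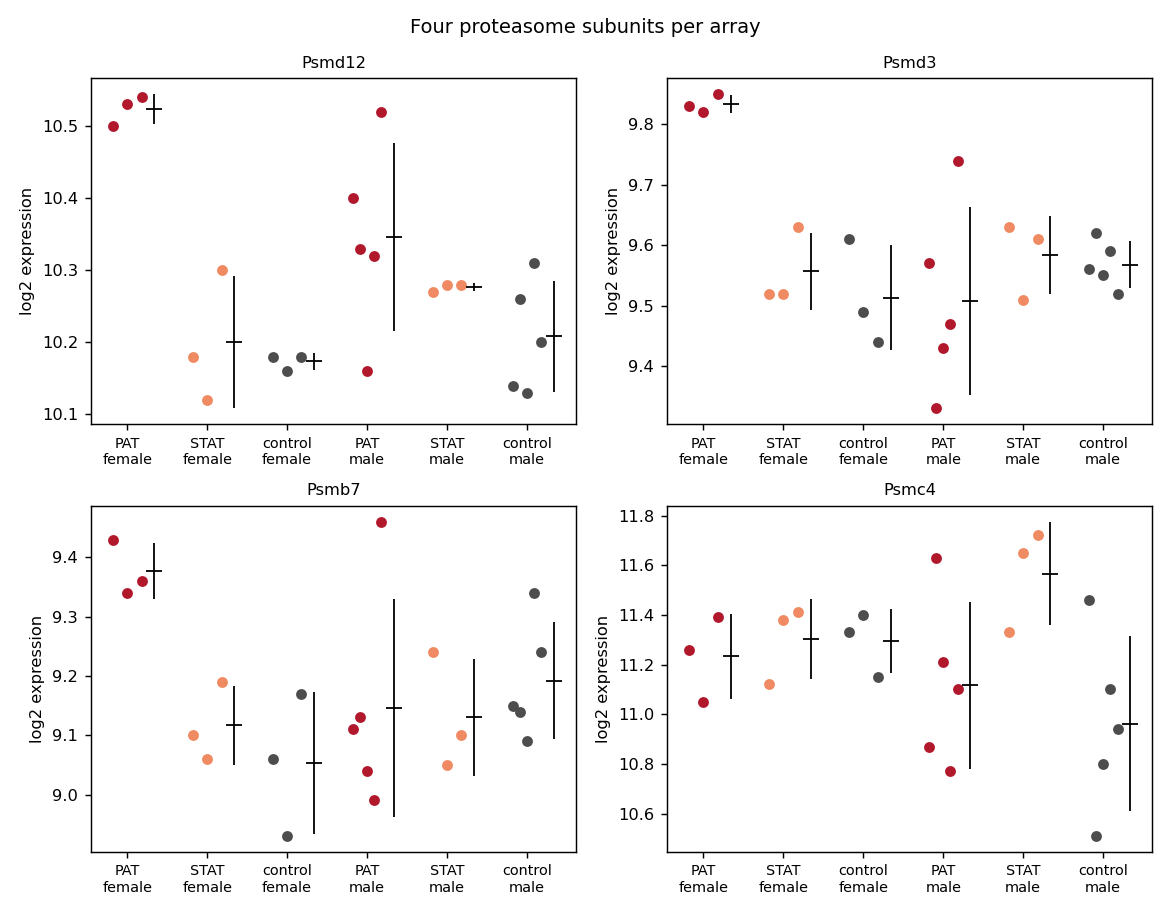
Log2 level of Psmd12, Psmd3, Psmb7 and Psmc4 on each array, by group, with the group mean ± SD beside the points. Psmd12, Psmd3 and Psmb7 are higher in all PAT females than in any control female, PAT male 5 is the highest PAT male for these 3 genes, and Psmc4 is spread widely in PAT males (10.77 to 11.63) and control males (10.51 to 11.46).

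Cell type markers moved with the same arrays in part. The proliferation list (Mki67, Top2a, Pcna, Rrm2 and Mcm3, 5 measured of 6) had a mean centred level of 0.38 to 0.63 in PAT females, against -0.32 to 0.07 in control females. In males it was -0.66 to 0.23 with PAT and -0.29 to 0.12 in controls. PAT male 5 had 0.23 and PAT male 4 had 0.21, although the core mean of PAT male 4 was -0.15. The endothelial list (4 of 4 measured) was also higher in PAT females, at 0.05 to 0.76 against -0.44 to -0.11 in control females. The stem cell list (4 of 4) was at -0.54 to -0.24 in PAT males and -0.11 to 0.16 in control males, so that these groups did not overlap. Ascl2, its only gene called in males, averaged 6.69 with PAT against 7.54 in controls. Lgr5 averaged 7.77 against 8.10, Olfm4 12.48 against 12.70 and Smoc2 9.30 against 9.49. For each single gene the male ranges overlapped. In females the stem cell list was at -0.05 to 0.40 with PAT and -0.08 to 0.14 in controls. The Paneth cell list (3 of 4) was at -0.43 to 0.09 in PAT males and -0.14 to 0.32 in control males, and at -0.15 to 0.36 in PAT females and -0.24 to 0.14 in control females. The ileal enterocyte list (6 of 6) was at -0.01 to 0.40 in PAT females against -0.05 to -0.04 in control females, and at -0.02 to 0.43 in PAT males against -0.23 to 0.03 in control males. For that list the female groups did not overlap, and among males PAT male 4 alone lay within the control range. Apoa4 was the only gene of the list called within either sex. In females Apoa4 averaged 12.99 with PAT against 10.96 in controls, and Fabp6 averaged 14.51 against 14.30. Slc10a2, Vil1, Epcam and Cdh1 averaged lower in PAT females than in control females. The median difference over the enterocyte list was -0.096 in females and 0.213 in males. The smooth muscle list was at -0.69 to 0.19 in PAT females and -0.34 to 0.26 in control females. In males it was at -0.76 to 0.17 with PAT and -0.18 to 0.25 in controls. Its lowest PAT arrays were PAT female 1 and PAT male 5. The adipocyte list was at -2.51 to 2.15 in PAT males (PAT male 5 at -1.71) and -2.01 to 2.96 in control males. The goblet, fibroblast, leukocyte, B cell, plasma cell and exocrine pancreas lists were also computed and are not set out here. The array gives no true zero for any of these lists, and the part these lists have in the proteasome values was not tested. With the Gapdh end difference as a covariate, 29 of the 34 members were above 0 in females and below 0 in males. In RNA of whole tissue, fewer cells of a type and less RNA per cell cannot be told apart.

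With STAT, 0 of the 34 members and 0% of all 18193 genes were called by limma, averaged over the sexes. At an unadjusted p under 0.05 the count was 1 of 34 members, against 13.1% of all genes. The median difference was -0.002 for the core and -0.024 for the cap, beside -0.004 for all genes, and the intervals of 33 members stayed within 1.5-fold. Of the catalytic subunits, Psmb5 differed by -0.02, Psmb6 by -0.01 and Psmb7 by 0.00, each with a standard error of 0.06 or 0.07. The values of these 3 genes side by side were -0.03, -0.04 and 0.14 with PAT.

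The member with the smallest p was Psmc4, an ATPase of the base. Its levels were 11.12, 11.38 and 11.41 in STAT females against 11.33, 11.40 and 11.15 in control females, and 11.33, 11.65 and 11.72 in STAT males against 11.46, 10.51, 10.80, 11.10 and 10.94 in control males. The averaged difference was 0.31 ± 0.14 (SE, adjusted p = 0.34), made of 0.01 in females and 0.61 in males (adjusted p = 0.13). The female and male values differed by -0.60 (adjusted p = 0.99). A second, dimmer probe set of Psmc4 gave -0.08 in STAT males. Psma7, of the alpha ring, differed by 0.12 (adjusted p = 0.39), Psma1 by 0.11 (0.45 adjusted), Psmd8 by -0.13 (0.46 adjusted) and the assembly chaperone Psmd9 by -0.14 (0.49 adjusted).

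Psmd8 and Psmd9 were low in STAT males 2 and 3, the arrays with the wide beta-actin gap. Psmd8 had 11.24 in STAT male 1 but 10.68 and 10.77 in STAT males 2 and 3. Psmd9 had 8.42, 7.77 and 7.95 in the same order. The same arrays had -0.82 and -0.37 for the ileal enterocyte list, against 0.04 in STAT male 1 and -0.23 to 0.03 in control males. They had 0.54 and 0.56 for the stem cell list, against -0.30 in STAT male 1 and -0.11 to 0.16 in control males, and 0.56 and 0.52 for the smooth muscle list, against -0.06 in STAT male 1 and -0.18 to 0.25 in control males. The part of these measures in the values of Psmd8 and Psmd9 was not tested. Without STAT males 2 and 3 the averaged differences were 0.04 for Psmd8 and 0.05 for Psmd9. Without STAT male 1, which left those arrays as the only STAT males, limma called 1053 of all genes and 2 members, Psmd8 at -0.22 and Psmd9 at -0.23. In females alone the 34 members lay between -0.09 and 0.14, 0 of them with an unadjusted p under 0.05 (background 3.31%). The smallest p there was that of Psmd7, at 0.14 (adjusted p = 1). In males alone 0 members and 0% of all genes were called, and 4 members had an unadjusted p under 0.05 (background 15.7%).

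Between the antibiotic groups limma called 1 of the 34 members and 5.88% of all genes, 2.89% as higher with PAT. The member was Psmd12 again, 0.20 ± 0.06 (SE) higher with PAT (adjusted p = 0.042). Its STAT levels were 10.18, 10.12 and 10.30 in females and 10.27, 10.28 and 10.28 in males, below all PAT females and below 4 of the 5 PAT males. In 10 of 14 runs without 1 array this call was lost, with differences of 0.18 to 0.22. Psmb7 differed by 0.14 (adjusted p = 0.28), Psmc4 by -0.26 (adjusted p = 0.28), Psmd3 by 0.10 (adjusted p = 0.34) and Psmd14, the deubiquitinase of the lid, by 0.12 (adjusted p = 0.35). Psmb5 differed by -0.01 and Psmb6 by -0.03. The core median was -0.029 and the cap median 0.032, beside -0.003 for all genes.

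The immunosubunits, which the proteasome takes up in place of its constitutive active sites, fell with PAT, Psmb8 by 0.77, Psmb9 by 0.50 and Psmb10 by 0.44 on the log2 scale, with adjusted p of 0.00095, 0.00053 and 0.00078. Within the sexes, all 3 were called lower in males (background 9.02% of all genes called) and 0 in females (background 3.35%). In females all 3 had an unadjusted p under 0.05 (background 20.9%). For Psmb8, PAT female 1 had 9.46, within the 9.35 to 9.88 of control females. PAT female 1 is also the array with the highest means of the B cell list (2.57) and the leukocyte list (0.38). The part of these markers in its Psmb8 level was not tested. The constitutive counterparts Psmb5, Psmb6 and Psmb7 were not called. The log2 ratio of each immunosubunit to its counterpart was therefore taken within each array, and it is given below relative to the mean of the controls of the same sex. The ratio compares arrays only, since its level depends on the probe sets, and it shows unequal change within the array, not that either gene was constant.

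For Psmb8 over Psmb5 it was -0.28, -1.03 and -1.27 in PAT females, -0.24, -0.09 and -0.61 in STAT females and -0.34, 0.09 and 0.25 in control females. In males it was -0.59, -0.48, -0.66, -0.71 and -0.60 with PAT, -0.41, -0.47 and -0.51 with STAT and 0.03, 0.41, -0.19, -0.19 and -0.06 in controls. All male arrays with either antibiotic lay below every control male, whereas PAT female 1, the array with high B cell markers, lay within the control female range.

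Psmb9 over Psmb6 was -0.31, -0.46 and -0.67 in PAT females, -0.12, -0.32 and -0.45 in STAT females and -0.15, -0.03 and 0.18 in control females. In males it was -0.52, -0.47, -0.31, -0.46 and -0.45 with PAT, -0.30, -0.34 and -0.24 with STAT and -0.05, 0.11, -0.12, 0.02 and 0.05 in controls. Every PAT array and 5 of 6 STAT arrays lay below every control array of their sex. Psmb10 over Psmb7 was -0.82 to -0.58 in PAT females and -0.83 to -0.25 in PAT males, against -0.06 to 0.09 in control females and -0.17 to 0.38 in control males. There too every PAT array lay below every control array of its sex, while 4 of 6 STAT arrays did.

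**Figure D5:**
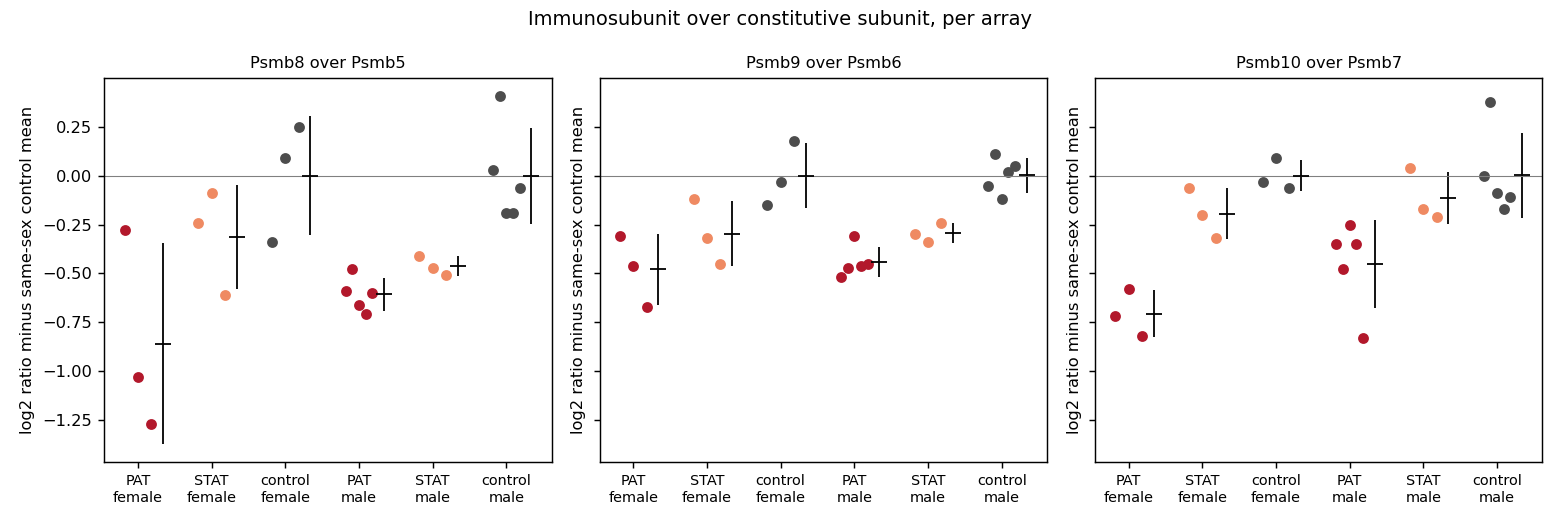
Log2 ratio of each immunosubunit to the constitutive subunit it replaces, per array and relative to the mean of the controls of the same sex, with the group mean ± SD beside the points. PAT arrays lie at -1.27 to -0.28 for Psmb8 over Psmb5, at -0.67 to -0.31 for Psmb9 over Psmb6 and at -0.83 to -0.25 for Psmb10 over Psmb7. Averaged over the sexes, the STAT differences from control are -0.39, -0.30 and -0.15, smaller than the -0.73, -0.46 and -0.58 with PAT. Some STAT arrays lie within the PAT range or the control range of their sex.

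The mean difference in the ratio with PAT, averaged over the sexes, was -0.73 for Psmb8 over Psmb5, -0.46 for Psmb9 over Psmb6 and -0.58 for Psmb10 over Psmb7. With STAT, which shares the controls, it was -0.39, -0.30 and -0.15 for the same ratios. With the mean of each gene's probe sets the Psmb8 over Psmb5 value was -0.43 with PAT and -0.21 with STAT. These ratios were chosen after the fall of the immunosubunits was known, and they are given as a description without a test.

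Genes that build, regulate or feed the proteasome were read from lists, whose counts stand beside the 11% of all genes called with PAT, of which the share called higher was 4.61% of all genes. Of the assembly factors (8 measured of 8, with the chaperones Psmd5, Psmd9 and Psmd10 counted here too), 1 rose with PAT and 0 fell. It was Psmg3, a chaperone of the core, at 0.32 (adjusted p = 0.011), with a list median of -0.021. Of the activators and the inhibitor (4 of 5 measured), 0 rose and 1 fell. It was Psme1, a subunit of the interferon-inducible activator ring that binds the core in place of the cap. Psme1 levels averaged 11.44 ± 0.04 (SD, n = 3) in PAT females, 11.70 ± 0.06 (n = 3) in STAT females and 11.79 ± 0.02 (n = 3) in control females. In males Psme1 averaged 11.41 ± 0.06 (n = 5) with PAT, 11.59 ± 0.06 (n = 3) with STAT and 11.75 ± 0.07 (n = 5) in controls. The PAT difference was -0.34 ± 0.05 (SE, adjusted p = 8.4e-05), close in females (-0.35) and males (-0.34), and it was -0.22 against STAT (adjusted p = 0.0093). Psme4, the nuclear activator, fell by 0.24 in PAT males (adjusted p = 0.014), and its difference in PAT females was -0.01 (adjusted p = 0.96). The test between the sexes gave an adjusted p of 0.21 for Psme4. Psme2 was not analysed here.

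Of the cap-associated genes (4 of 5 measured), Usp14, the deubiquitinase that binds the cap and trims ubiquitin chains, rose with PAT by 0.33 (adjusted p = 0.0054) and 0 fell. Its difference was 0.48 in females (adjusted p = 0.028) and 0.19 in males (adjusted p = 0.20). Of the regulators of proteasome genes (8 of 9 measured), 2 rose and 2 fell. Nfyb, a subunit of the factor that binds CCAAT boxes, and Nfe2l2, the factor of the oxidative stress response, each rose by 0.25 (adjusted p = 0.019 and 0.034). Ngly1, the enzyme that removes sugars from Nfe2l1 so that it becomes active, fell by 0.28 (adjusted p = 0.015), and Foxo4, a factor reported to raise Psmd11 in human stem cells, fell by 0.41 (adjusted p = 0.0014). Nfe2l1 itself differed by -0.03 (adjusted p = 0.83). Of the ubiquitin and delivery genes (7 of 13 measured), 1 rose and 1 fell. Rad23b, which carries ubiquitinated proteins to the cap, rose by 0.23 (adjusted p = 0.026), and Ubqln1, another such carrier, fell by 0.17 (adjusted p = 0.033). With STAT 0 members of these lists passed the test.

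These calls had limits. With the Gapdh end difference as a covariate, limma no longer called 7 of these genes (adjusted p of 0.10 to 0.28), while their differences kept their signs. Psmg3 was then at 0.28, Usp14 at 0.25, Nfyb and Nfe2l2 at 0.23 each, Rad23b at 0.18, Ngly1 at -0.16 and Ubqln1 at -0.14. Psme1, Psmb8, Psmb9, Psmb10 and Foxo4 stayed called. With probe sets averaged per gene, Psmg3 was at 0.18, Usp14 at 0.19, Foxo4 at -0.19 and Ubqln1 at -0.04, with adjusted p of 0.055 to 0.69, and Rad23b was at 0.15 (adjusted p = 0.044). Nfe2l2 was at 0.52 with probe sets averaged (adjusted p = 0.0036), and it was not called with only the groups compared, additive terms or array weights (0.19 to 0.25, adjusted p of 0.054 to 0.065). Nfyb was not called with additive terms (0.21, adjusted p = 0.064), nor Ubqln1 with only the groups compared (-0.17, adjusted p = 0.063). Over 11 settings Usp14 in females ran from 0.19 to 0.52, with an adjusted p of up to 0.34. Psme4 in males was at -0.10 with probe sets averaged (adjusted p = 0.21), at -0.22 with the Gapdh covariate (adjusted p = 0.057) and at -0.24 with only the groups compared (adjusted p = 0.061).

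The windows of 250 bases before to 50 bases after the annotated gene start were read for 28 of the 34 members from RefSeq on GRCm38.p6, and 4 motifs were searched on both strands. Psmb1, Psmb2, Psmb7, Psmc3, Psmd3 and Psmd7 were not read. The core of the antioxidant response element, TGACNNNGC, which Nfe2l1 and Nfe2l2 bind, was in the windows of 5 members, or 17.9%, and in 12.4% of all 32851 promoter windows. The 5 were Psmb5, Psmb6, Psmc6, Psmd9 and Psmd12, with the match beginning 47, 9, 227, 31 and 247 bases before the start. The CCAAT box, CCAAT, was in 11 members, or 39.3%, and in 37.4% of all windows. The member shares count genes, whereas the shares of all windows count windows. The 28 members have 30 windows, of which 5 held the antioxidant response element core and 11 the CCAAT box. The cyclic AMP response element, TGACGTCA, and the heat shock element were in 0 members, and in 1.79% and 0.603% of all windows. No match overlapped that of another motif, and a match is a description of letters, not a site in use. The windows of Psmd12, the member called with PAT, and of the catalytic subunits Psmb5 and Psmb6 are printed to show where the motif lies, on the gene's strand, 5′ to 3′, with the match to TGACNNNGC or its reverse complement in capitals. They are chr11:107479278-107479577 on the plus strand, chr14:54617946-54618245 on the minus strand and chr11:70525107-70525406 on the plus strand.
Psmd12: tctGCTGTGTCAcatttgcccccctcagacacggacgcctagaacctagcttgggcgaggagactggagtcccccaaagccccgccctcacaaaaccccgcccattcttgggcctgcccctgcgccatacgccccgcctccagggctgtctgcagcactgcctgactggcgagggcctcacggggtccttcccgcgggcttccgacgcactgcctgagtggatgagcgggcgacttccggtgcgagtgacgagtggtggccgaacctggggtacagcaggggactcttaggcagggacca
Psmb5: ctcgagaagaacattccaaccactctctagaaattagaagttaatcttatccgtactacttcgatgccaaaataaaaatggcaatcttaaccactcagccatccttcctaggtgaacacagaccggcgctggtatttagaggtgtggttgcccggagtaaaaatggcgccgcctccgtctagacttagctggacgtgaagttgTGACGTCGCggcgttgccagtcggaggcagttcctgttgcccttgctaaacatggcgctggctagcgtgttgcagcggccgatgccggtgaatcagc
Psmb6: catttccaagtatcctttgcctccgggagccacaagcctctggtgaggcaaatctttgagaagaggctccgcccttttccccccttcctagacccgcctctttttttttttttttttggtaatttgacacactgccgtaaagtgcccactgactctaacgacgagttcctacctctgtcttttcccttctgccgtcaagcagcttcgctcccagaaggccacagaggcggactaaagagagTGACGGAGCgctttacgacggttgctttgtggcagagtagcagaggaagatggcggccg
Psmd12, which rose with PAT, and the catalytic subunits Psmb5 and Psmb6, which were not called, carry the motif in these windows, in Psmd12 at the far end of the window and in Psmb6 next to the start.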

How the data were processed

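RNA of the 22 samples was hybridised to Affymetrix mouse arrays, after TRIzol extraction and RNeasy cleanup, per the labels' protocols. The authors deposited 1 log2 value for each probe set and array, made with RMA in affy, per the submitters' processing notes. No version is stated in the sources used here. The table holds 45101 probe sets, of which 64 controls were left out, 34945 carry 1 gene symbol, 932 several and 9160 none. The probe set with the highest mean stood for a gene, which left 18193 genes. Column medians were 5.68 to 5.79, and 0 pairs of arrays held identical values.

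limma 3.58.1 in R 4.3.3 fitted 1 mean per group to all arrays (16 residual degrees of freedom, prior 4.88) for 9 comparisons, with equal weight for each sex in the averaged ones. P-values are two-sided and Benjamini-Hochberg adjusted over all genes, and a gene was called under 0.05. Errors marked SE come from this model. On simulated data for PAT minus control, over 18193 genes, 23.9% of changes of 0.25, 86.6% of 0.5 and 100% of 1 were recovered and 3.45% of calls were false. The simulation changed 67, 67 and 66 genes by these sizes, with noise drawn separately for each gene. The real comparison called 1999 genes, so the share recovered there may differ. The precision is limited by the number of arrays.

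The members and lists were chosen with earlier results of these data known. Named were the catalytic subunits, the called members or the 5 with the smallest p per averaged comparison (1 within a sex or between the sexes), and up to 4 called genes per related list. Marker lists were centred per gene over all arrays and averaged. Promoter windows are those of RefSeq on GRCm38.p6, in which 28 members matched. The counts by sign and by separation and the ratios were added after the data were seen. The other settings tried are in the closing part.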

Additional observations from a re-analysis of the deposited data

Results flagged for a closer look

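In 104 groups of 5 arrays (PAT males or control males, for the genes and means named), 7 had a highest or lowest array whose gap to the next, divided by the range of the group, was above 0.71. Chance flags about 1 in 20 groups. PAT male 5 was the high array in 4 of them. It had 11.34 for Psma1, where the next PAT male had 11.14, and 10.99 for Psmc5, where the next had 10.79. It had 11.64 for Psmd6, where the next had 11.40, and a core mean of 0.06, where the next was -0.15. PAT male 2 was low for Psmb1, at 11.71 with the next at 11.87. Control male 2 was high for the activator subunit Psme1, at 11.88 with the next at 11.74, and for the immunosubunit Psmb8, at 9.91 with the next at 9.31.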

How the results depend on the processing

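No paired analysis was possible because the labels give no replicate number that 2 groups share. The count of 24 members above 0 in PAT females and below 0 in PAT males ran from 19 to 29 over 8 other settings and from 23 to 27 without each array in turn. The count of called members was 1 for PAT minus control, 2 when each probe set was tested on its own (adding a dim probe set of Psmd13) and 0 with the Gapdh covariate. For PAT minus STAT it was 1, and 0 with columns centred, only the groups compared, additive terms, the beta-actin covariate, or without STAT males 2 and 3, and 0 to 1 without each array. In females (PAT minus control) it was 2, then 1 with each probe set on its own, quantile normalization or centred columns, 0 with only the groups compared or the Gapdh covariate, 4 with array weights, and 0 in every run without 1 array. In males it was 0, then 1 with the mean of probe sets, a mean of at least 6, centred columns, the beta-actin covariate, array weights or limma-trend, and 0 to 2 without each array, the 2 being without PAT male 5. For STAT minus control it was 0, then 2 with array weights and 0 to 2 without each array, and in STAT males 0, then 10 with array weights and 0 to 5 without each array, the highest in both being without STAT male 1. The cap median for PAT minus STAT was 0.032, and -0.048 without STAT males 2 and 3. The ratio Psmb8 over Psmb5 with STAT was -0.39, and -0.21 with the mean of probe sets.

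Values near 0 changed sign without being called. Psmb5 was 0.02 for PAT minus control with the Gapdh covariate. For STAT minus control, Psmb5 was 0.03 (Gapdh), 0.05 (beta-actin) and 0.09 (without STAT males 2 and 3), and -0.07 to 0.02 without each array. Psmb6 was 0.00 (quantile), 0.02 (Gapdh), 0.04 (beta-actin) and 0.05 (without STAT males 2 and 3), and -0.03 to 0.02 without each array. Psmb7 was -0.02 (additive), -0.01 (Gapdh and array weights) and -0.04 (a term for the higher title numbers), and -0.03 to 0.03 without each array. Psmd8 and Psmd9 were 0.02 with the beta-actin covariate and 0.04 and 0.05 without STAT males 2 and 3. Psmb5 for PAT minus STAT was 0.02 (array weights) and 0.01 (title numbers), and -0.05 to 0.04 without each array. Psmb7 in PAT males was 0.02 (quantile) and Psmd7 in STAT females -0.02 (mean of probe sets).

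Over all genes, the 1999 calls of PAT minus control became 756 with the Gapdh covariate. The 1069 of PAT minus STAT became 516 (only the groups compared), 2631 (array weights) and 503 (without STAT males 2 and 3), and 633 to 1676 without each array. The 610 in PAT females became 0.233 times as many (Gapdh), 1524 (array weights) and 947 (title numbers), and 123 to 751. The 1641 in PAT males became 951 (only the groups compared) and 1050 (Gapdh), and 833 to 2089. The 0 of STAT minus control became 1 (only the groups compared) and 2288 (array weights), and 0 to 1053, and in STAT males 1 (each probe set), 4069 (array weights) and 9 (without STAT males 2 and 3), and 0 to 1973. The 1 call of the PAT difference between the sexes became 0 to 165 over 11 settings and 0 to 59 without each array. Except where a setting leaves out genes or arrays, the cause was not tested. On simulated data for PAT minus control over all genes, 23.9% of changes of 0.25 were recovered, and the members vary less within groups (median SD 0.099) than all genes do (0.158). The share recovered belongs to the simulation, which changed far fewer genes than were called with PAT. The members were not set against genes of a matched mean level.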

Other observations

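Among the 34 members, the spread within groups was widest for Psmc4, with a standard deviation of 0.272, and between 0.073 and 0.133 for the 14 core genes. Psmc4 has 2 probe sets that ran opposite ways in STAT males, 0.61 for the brighter and -0.08 for the dimmer.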
